A study of Danio rerio with 4 samples.

Results

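Genes of blood clotting, of thrombocytes and of complement were examined in hematopoietic stem and progenitor cells (HSPCs) sorted from adult zebrafish kidney marrow. The set was taken by gene symbol and held 77 of the 32434 genes in the count table. It covered clotting factors and their inhibitors (21 genes), thrombocyte receptors and enzymes (11), fibrinolysis (3), serpins of clades A, C, D, E and F (12) and complement components and regulators (29). The remaining gene, C1QBP, matched the symbol pattern by its spelling and encodes a mitochondrial matrix protein, so it was given no role but stayed in the counts over the whole set.

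Poly(A) RNA was sequenced from 2 tet2 mutant and 2 wild-type libraries. The mutant fish (tet2 m/m, set against tet2 wt/wt) came from a stable line made with zinc finger nucleases and carried a frameshifting deletion of a few bases in the gene, whose product oxidises 5-methylcytosine; the truncated protein lacks this activity. No other allele is named for either genotype. The only agent named is tricaine methanesulfonate, used on fish of both genotypes as an anesthetic before kidney removal. The sample titles state an age of 4 months and the descriptions state 15 months, and the study places this RNA comparison at the age of the titles. The cells of both genotypes were sorted by light scatter alone, without a surface marker or a transgene, and the sources used here do not give the number of fish per library. The study calls its replicates biological pools where it describes the methylation data. For the RNA it names 2 replicates, and it describes the RNA as taken from part of the sorted cells that also gave DNA. It does not match the RNA replicates to those pools, nor state whether they were separate pools of fish. The p-values rest on 2 libraries per genotype and on a spread that the fit shares across genes. They therefore do not measure the spread between single fish.

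Clotting runs as a cascade of proteases and cofactors that ends in fibrin, which factor XIII cross-links, while serpins and the protein C pathway restrain it. Thrombocytes are the nucleated fish counterpart of platelets and carry receptors for von Willebrand factor and fibrinogen. Complement can be started by C1q or lectins, which act through C4, or by the alternative pathway, and these routes converge on C3. Factors B, D and H and properdin act in the alternative pathway or control it. Most soluble factors of both systems are made in the liver, whereas C1q and properdin are known products of myeloid cells and the integrin and glycoprotein receptors mark thrombocytes.

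Total counts were 8838603 to 10710913 per library, and a count of 0 allowed a level of up to 0.271 to 0.396 CPM (the read count scaled to library size with TMM factors), where only counting error enters the limit. The transcript of tet2 itself had 232 and 282 reads in the mutant libraries, against 332 and 185 reads in the wild-type libraries, and did not pass the test (log2 fold change -0.23 ± 0.22, SE, edgeR adjusted p = 0.683). Reads outside the deleted bases cannot check the genotype labels. Stem and progenitor markers were read in the sorted cells, 11 of 12 in all 4 libraries, as were 16 of 16 neutrophil and 11 of 12 red cell markers. Of 14 liver markers, 6 had reads in all 4 libraries. At the thresholds given below, 0 of 10 tested were called, where 3.71% of all genes were. Their summed level was 14.6 and 21.3 CPM in mutant libraries and 25.2 and 13.2 CPM in wild-type libraries. It was carried mainly by HPX (1 of 2), with 11.5 and 16.6 CPM in mutants and 13.2 and 11.7 CPM in wild type. The sum thus says little about the other liver markers. Wild-type replicate 1 held 22 reads of fetub and 11 of AHSG, against 1 and 0 in each of the others, and transferrin (tfa) had 0 and 10 reads in mutants and 25 and 0 in wild type. The kidney tubule cadherin cdh17 had 256 and 27 reads in mutant replicates 1 and 2, against 43 and 28 reads in the wild-type libraries. Mutant replicate 1 stood apart in this marker and in others. It held the most reads of each tubule gene tested except slc20a1a and slc26a1. The gene atp1a1a.4 had 349 and 24 reads in mutants and 82 and 38 in wild type. For slc12a3 these were 66 and 6 in mutants and 28 and 12 in wild type. Of 10 tubule genes tested, 0 were called, where 3.71% of all genes were. With so few genes, 0 calls do not set the liver or tubule list apart from all genes. Among the tubule genes, 8 of 10 log2 fold changes lay above 0 (median 1.30), against 49.3% of all genes. Their summed level, carried mainly by the widely expressed slc20a1a, was 398 and 191 CPM in mutants and 429 and 317 CPM in wild type. The part of liver and tubule cells in the results below was not tested.

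Of the 77 genes, 51 had more than 5 reads over the 4 libraries and were tested, 16 had 1 to 5 reads, and 10 had no read. Several genes whose main source is the liver were not tested. The fibrinogen chain genes fga, fgb and fgg had 2, 5 and 4 reads in all. Plasminogen (plg) had 1 read and the terminal complement gene c9 had 4. No read fell on proc and PROC (2 of 2), copies of protein C, on f9b, or on masp2 and MASP1, proteases of the lectin pathway.

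Between genotypes, 2 of the 51 tested genes rose and 2 fell when called at a log2 fold change beyond 1 in size with an edgeR adjusted p below 0.05. The clotting cofactor gene f5 and the complement gene C4A rose, whereas the integrin gene itgb3a and the complement gene C3 (6 of 6) fell. Calls thus made up 7.84% of the set, against 3.71% of all 17242 genes tested (1.80% higher and 1.90% lower in mutants), a description with no test of the difference. DESeq2, the program the study used, and edgeR without the replicate block each called 2 of the 51, f5 and C3 (6 of 6). Over all genes, they called 1.29% and 1.50%. DESeq2 gave no adjusted p to the tested genes with the fewest reads, among them vwf, f8, GP5 and P2RY12. Here and below, its counts take such genes as not called. All 3 fits called f5 higher and C3 (6 of 6) lower, or 1 gene each, where 0.522% of all genes were called higher and 0.580% lower by all 3. The set had a median log2 fold change of -0.05, against -0.01 over all genes, and 22 of 51 values (43.1%) lay above 0, against 49.3% of all genes. Both mutant libraries lay above both wild-type libraries for 10 genes and below them for 12, or 19.6% and 23.5%, near the 23.1% and 21.7% found over all genes. Without C1QBP, 4 of 50 tested genes were called, 21 values lay above 0 and the median was -0.09. At an unadjusted edgeR p under 0.05, 4 of the 51 were higher and 5 lower, where 17.1% of all genes passed that limit in either direction. In bulk samples, fewer cells of a type and less RNA per cell cannot be told apart.

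**Figure D1:**
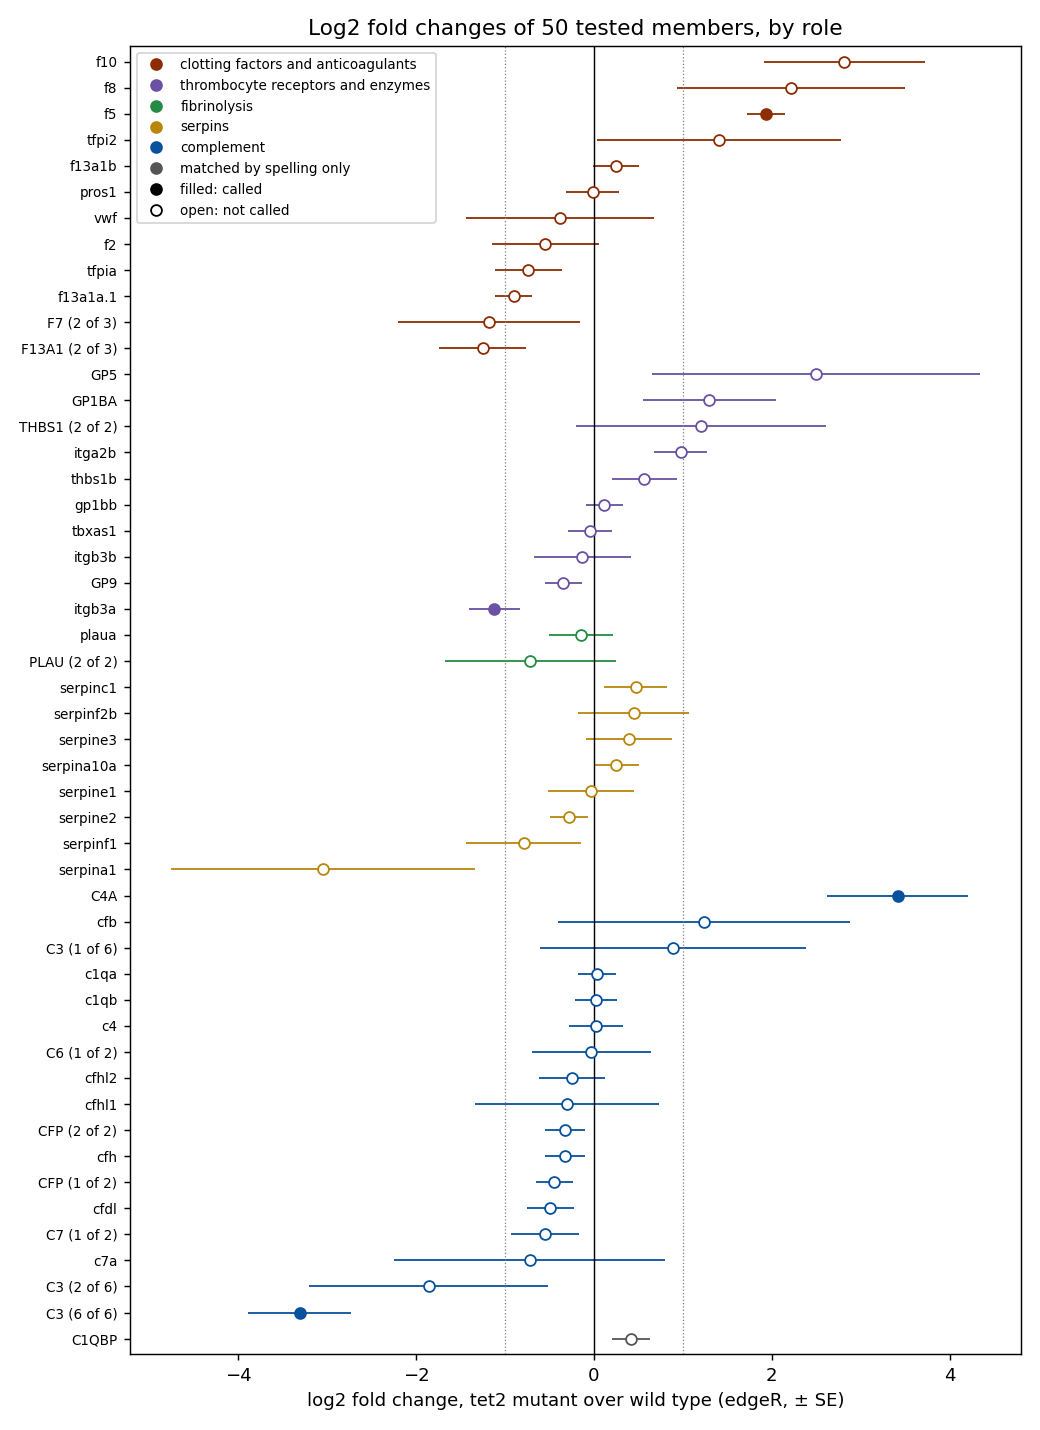
Log2 fold change of tet2 mutant over wild-type libraries (x axis, bars are ± SE of the edgeR fit with the replicate block) for 50 tested genes, ordered by role and coloured by it. Filled points were called, open points were not, and dotted lines mark the fold threshold; P2RY12, with no read in the mutants, is not drawn. Only f5 and C4A are filled on the right and itgb3a and C3 (6 of 6) on the left.

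Among the 12 clotting genes tested, 1 was called higher and 0 lower (8.33%, against 3.71% of all genes), with a median log2 fold change of -0.20. At an unadjusted edgeR p under 0.05, 2 were higher and 2 lower, where 17.1% of all genes passed. DESeq2 and edgeR without the block each called 1 higher and 0 lower, where they called 1.29% and 1.50% of all genes. The called gene was f5 (ENSDARG00000055705). It encodes factor V, the cofactor with which factor X activates prothrombin. Its level was 128 and 83.2 CPM in mutant replicates 1 and 2, against 34.2 and 21.1 CPM in wild-type replicates 1 and 2. Both mutant libraries lay well above both wild-type libraries, and replicate 1 was the higher of the pair in each genotype. The mean was 105.5 ± 31.5 CPM in mutants and 27.7 ± 9.28 CPM in wild type (SD, n = 2 each), and the log2 fold change was 1.94 ± 0.21 (SE, edgeR adjusted p = 1.01e-07). The adjusted p was 4.08e-09 with DESeq2 and 0.00529 with edgeR without the block. With each library left out in turn the gene was called each time, and the lowest log2 fold change was 1.58, without mutant replicate 1.

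The A subunit of factor XIII, the transglutaminase that cross-links fibrin, is encoded by several copies, of which none was called. The copy f13a1b had 250 and 309 CPM in mutants, against 268 and 204 CPM in wild type, so the groups overlapped (log2 fold change 0.25 ± 0.26, edgeR adjusted p = 0.714). The copy f13a1a.1 had 41.8 and 46.5 CPM in mutants, against 89.8 and 75.7 CPM in wild type. Its groups did not overlap, and its log2 fold change of -0.90 ± 0.21 had an edgeR adjusted p of 0.00541 but was short of the fold threshold. The adjusted p was 0.0668 with DESeq2 and 0.0471 without the block. Without wild-type replicate 2 it was past that threshold, at -1.03. The copy F13A1 (2 of 3) had 23 and 10 reads in mutants, against 36 and 28 reads in wild type (log2 fold change -1.25, edgeR adjusted p = 0.149). Within each library, the ratio of f13a1a.1 to f13a1b reads was 0.167 and 0.150 in mutants, against 0.334 and 0.372 in wild type, a measure that does not depend on library scaling. This ratio and those given further on were chosen after the values were seen. With 2 libraries per genotype the smallest p of an exact two-sided permutation test is 0.333, so none is given for them. Since the sources used here do not say how reads shared by similar copies were assigned, the value of a single copy is uncertain.

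The other clotting genes did not pass the test. Protein S (pros1), the cofactor of protein C, had 7.37 and 6.77 CPM in mutants and 7.54 and 6.73 CPM in wild type, with a log2 fold change of -0.01 ± 0.30. The tissue factor pathway inhibitor gene tfpia had 4.71 and 1.90 CPM in mutants, against 6.11 and 4.35 CPM in wild type (edgeR adjusted p = 0.315). Prothrombin (f2) had 12 to 18 reads per library, and vwf, the gene of the adhesive ligand of the thrombocyte glycoproteins, had 3 to 9. Factor X (f10) had 8 and 49 reads in mutants, against 5 and 0 reads in wild type. Mutant replicate 2 held most of these reads. Without mutant replicate 2 the log2 fold change was 1.51. The gene was not called (log2 fold change 2.82 ± 0.90, edgeR adjusted p = 0.0607), though it was without the filter on low counts (adjusted p = 0.00921), without mutant replicate 1 (adjusted p = 9.79e-05) and without wild-type replicate 1 (adjusted p = 0.00608). In the RefSeq list of the GRCz12tu assembly, f7, f7i and f10 are direct neighbours, and f7 and f7i had 3 reads and 0 reads in all.

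**Figure D2:**
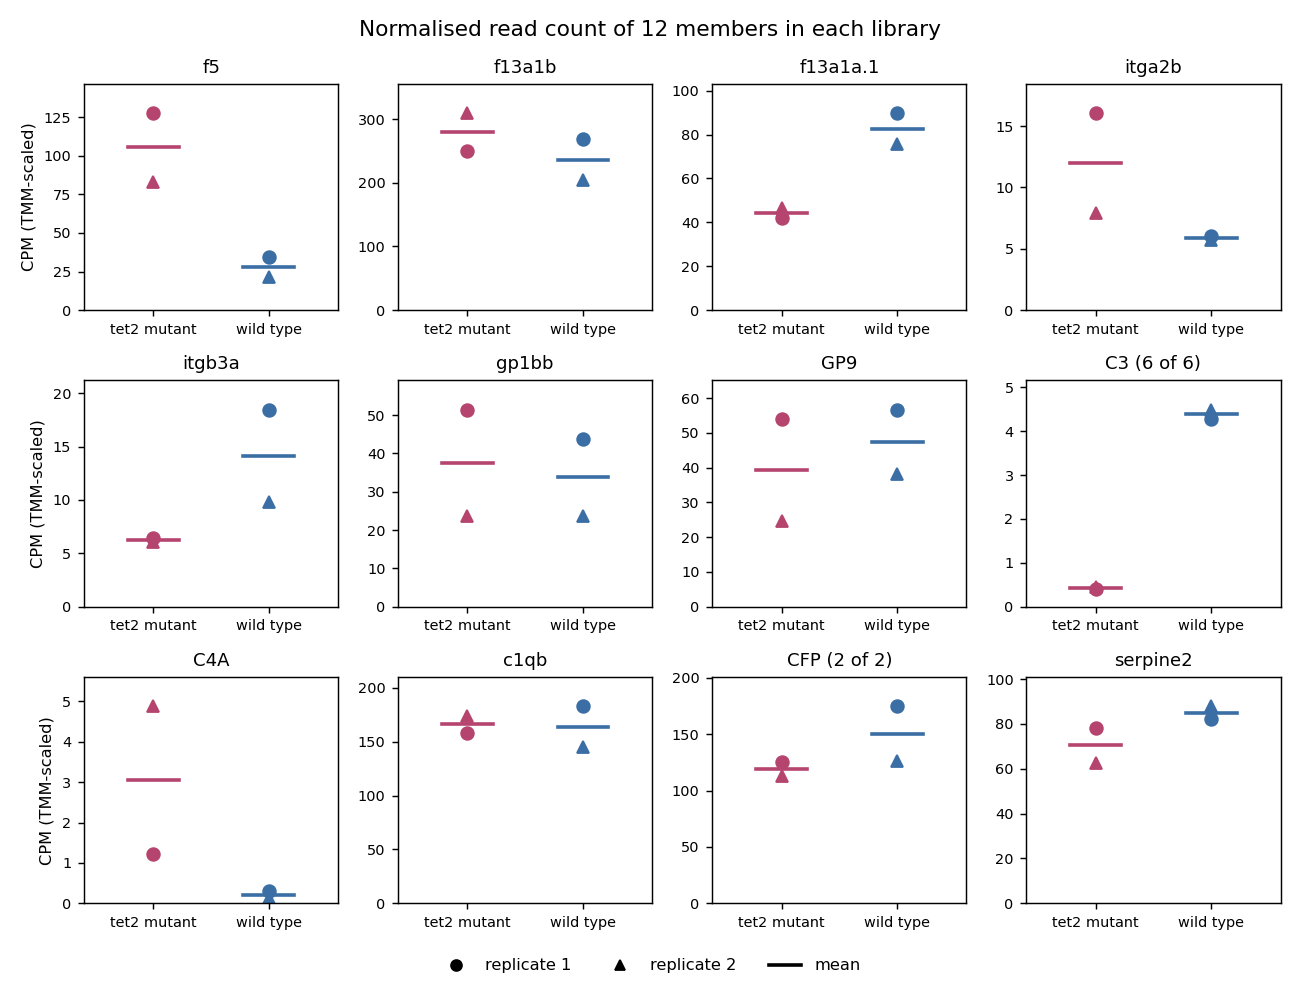
Normalised read count (CPM, linear axes that start at 0) of 12 genes in each library, with circles for replicate 1, triangles for replicate 2 and lines for the mean of each genotype. The mutant libraries sit at 128 and 83.2 CPM for f5, above 34.2 and 21.1 CPM in wild type, and at 0.409 and 0.451 CPM for C3 (6 of 6), below 4.28 and 4.49 CPM in wild type, whereas the points of c1qb, f13a1b and gp1bb overlap.

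Of 11 thrombocyte receptor and enzyme genes, 0 were called higher and 1 lower (9.09%, against 3.71% of all genes), with a median log2 fold change of 0.12. At an unadjusted edgeR p under 0.05, 1 was higher and 1 was lower, a share near the 17.1% of all genes, and DESeq2 and edgeR without the block called 0. The median was -0.36 when mutant replicate 1 was left out and stayed positive when any other library was, at 0.93 for mutant replicate 2, 0.81 for wild-type replicate 1 and 0.08 for wild-type replicate 2. The summed level of the 11 genes was 158 and 79.5 CPM in mutants, against 147 and 96.5 CPM in wild type. Replicate 1 was thus the higher library in both genotypes, and single genes followed: 10 of 11 were higher in mutant replicate 1 than in mutant replicate 2, and 9 of 11 were higher in wild-type replicate 1 than in wild-type replicate 2. Over all 51 tested genes of the set, replicate 1 was the higher for 31 in mutants and for 34 in wild type. Some of the 11 had few reads, with 8 for GP5 and 7 for P2RY12 over all libraries.

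The integrin subunits itga2b (ENSDARG00000018687) and itgb3a (ENSDARG00000056767), whose products pair as the fibrinogen receptor of thrombocytes, had opposite signs. The alpha subunit itga2b (CD41) had 16.1 and 7.95 CPM in mutants, against 6.01 and 5.67 CPM in wild type. The groups did not overlap, and the log2 fold change was 0.98 ± 0.30 (SE, edgeR adjusted p = 0.0459), just short of the fold threshold. The adjusted p was 0.602 with DESeq2 and 0.204 without the block. Mutant replicate 1 weighed heavily, since leaving it out gave a log2 fold change of 0.44, and leaving out mutant replicate 2 gave 1.45, which was called. The beta subunit itgb3a had 6.45 and 6.05 CPM in mutants, against 18.4 and 9.77 CPM in wild type. Here wild-type replicate 1 was the highest library and the groups did not overlap. The gene fell, with a log2 fold change of -1.12 ± 0.28 (SE, edgeR adjusted p = 0.0128). DESeq2 (adjusted p = 0.349) and edgeR without the block (adjusted p = 0.111) did not call it. Its value was -0.67 without wild-type replicate 1 (adjusted p = 0.602), -1.14 without mutant replicate 2 (adjusted p = 0.0728) and -1.57 without wild-type replicate 2. Within libraries, the ratio of itga2b to itgb3a reads was 2.49 and 1.31 in mutants, against 0.326 and 0.581 in wild type. The other copy, itgb3b, had 43 and 8 reads in mutants and 22 and 18 reads in wild type, and was not called.

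The glycoproteins that together bind von Willebrand factor did not pass the test and varied between replicates. The beta chain gene gp1bb had 51.4 and 23.7 CPM in mutants, against 43.7 and 23.8 CPM in wild type (log2 fold change 0.12 ± 0.21, edgeR adjusted p = 0.850). Its partner GP9 had 54.1 and 24.6 CPM in mutants, against 56.7 and 38.3 CPM in wild type (log2 fold change -0.34 ± 0.21, edgeR adjusted p = 0.433). Both had about the same profile over the 4 libraries, replicate 1 above replicate 2, and their ratio was 0.949 and 0.963 in mutants, against 0.772 and 0.621 in wild type. The remaining chains had few reads, with 22 and 13 for GP1BA in mutants, against 12 and 2 in wild type, and 8 for GP5 over all libraries. The thromboxane synthase gene tbxas1 had 14.5 and 11.6 CPM in mutants and 13.5 CPM in each wild-type library (log2 fold change -0.05 ± 0.25). The ADP receptor gene P2RY12 had 0 reads in both mutant libraries, against 6 and 1 reads in wild type. Set against a floor of 3 counts over the mutant group, the 7 wild-type reads stood 2.80-fold higher after scaling. That value leaves out the counting error of the 7 reads, so it is not a lower bound. The gene did not pass the test (log2 fold change -4.80 ± 2.39, edgeR adjusted p = 0.302).

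**Figure D3:**
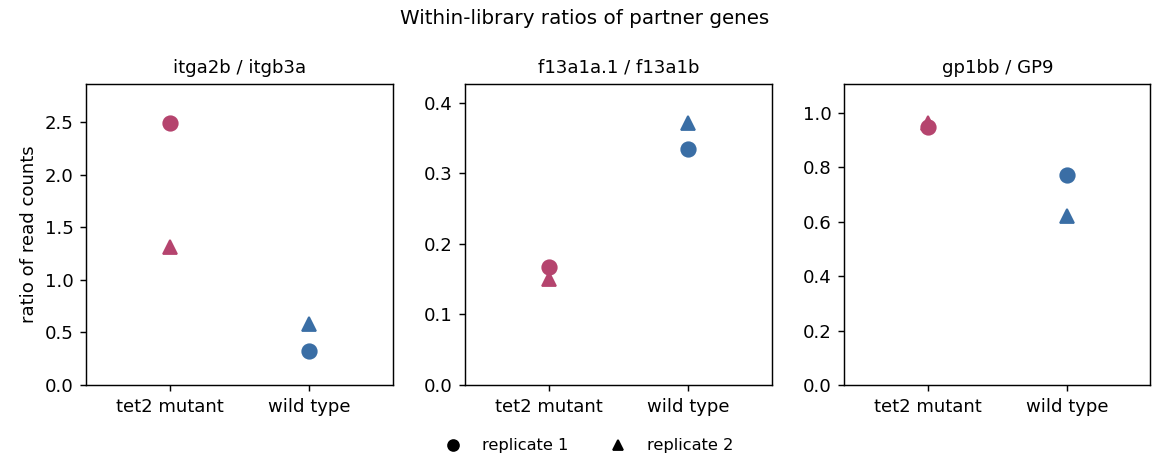
Ratio of the read counts of partner genes within each library (linear axes that start at 0), with circles for replicate 1 and triangles for replicate 2. The itga2b to itgb3a ratio is 2.49 and 1.31 in mutant libraries, above 0.326 and 0.581 in wild type, and the f13a1a.1 to f13a1b ratio is 0.167 and 0.150 in mutants, below 0.334 and 0.372 in wild type. For gp1bb to GP9 it is 0.949 and 0.963 in mutants and 0.772 and 0.621 in wild type.

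Further genes linked to thrombocytes, outside the symbol rule, were read alongside. Of 18 tested, 1 was called higher and 1 lower (11.1%, against 3.71% of all genes), and their median log2 fold change was 0.16. The fli1a gene, of a transcription factor that acts in thrombocytes and endothelium, had 63.9 and 109 CPM in mutants, against 46.4 and 33.4 CPM in wild type (log2 fold change 1.08 ± 0.24, edgeR adjusted p = 0.0037). DESeq2 did not call it (adjusted p = 0.0630), nor did edgeR without the block (adjusted p = 0.0646), and its value was 0.68 without mutant replicate 2 and 0.89 without wild-type replicate 2. TUBB1, the beta tubulin of platelets in mammals, had 32.7 and 22.8 CPM in mutants, against 57.7 and 58.5 CPM in wild type, and fell in all 3 fits (log2 fold change -1.08 ± 0.21, edgeR adjusted p = 9.31e-04). It was not called in the bias-adjusted edgeR fit (adjusted p = 0.0623) or without mutant replicate 2, where its value was -0.83. The genes of this list with the highest CPM, nfe2, rap1b, selp (now named SELE) and plek, had log2 fold changes of 0.33, 0.64, 0.14 and 0.43. None was called. In mutants, nfe2 (190 and 255 CPM), rap1b (157 and 228 CPM) and plek (94.7 and 130 CPM) were higher in replicate 2, unlike gp1bb and GP9. The list was split in this respect. In mutants, selp (151 and 134 CPM), TUBB1 (32.7 and 22.8 CPM) and mpl (14.9 and 6.41 CPM), among others, were higher in replicate 1. Whether thrombocytes are the source of these reads was not tested. The thrombopoietin receptor gene mpl had 146 and 71 reads in mutants, against 104 and 65 reads in wild type.

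Genes of fibrinolysis and the serpins did not pass the test. Of 2 fibrinolysis genes and 8 serpins tested, 0 were called by edgeR with the block, where 3.71% of all genes were. At an unadjusted edgeR p under 0.05 there were 0, where 17.1% of all genes passed. DESeq2 and edgeR without the block called 0, where they called 1.29% and 1.50% of all genes. With so few genes, 0 calls do not set these groups apart from all genes. The urokinase copy plaua had 3.17 and 6.86 CPM in mutants, against 5.91 and 4.62 CPM in wild type, and PLAU (2 of 2) had 11 and 2 reads in mutants and 9 and 7 reads in wild type. The serpin with the most reads was serpine2, which encodes protease nexin-1, an inhibitor of thrombin and urokinase. It had 78.4 and 62.5 CPM in mutants, against 82.3 and 87.8 CPM in wild type. Its groups did not overlap, but the log2 fold change was only -0.28 ± 0.21 (edgeR adjusted p = 0.563). The gene serpina10a, of the protein Z-dependent inhibitor of factor X, had 14.9 and 12.3 CPM in mutants and 15.2 and 8.31 CPM in wild type. Antithrombin (serpinc1) had 4.30 and 6.32 CPM in mutants and 3.16 and 4.49 CPM in wild type, with a log2 fold change of 0.47 ± 0.35.

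Outside the symbol rule, a list of other clotting and complement genes had 2 of 27 tested members called higher and 1 lower (11.1%, against 3.71% of all genes), with a median log2 fold change of 0.31. The calls fell on anxa2a and on the s100a10 copies; annexin A2 and S100A10 form a complex that binds plasminogen at the cell surface in mammals. The level of anxa2a was 350 and 320 CPM in mutants, against 179 and 110 CPM in wild type (log2 fold change 1.25 ± 0.25, edgeR adjusted p = 0.00164, called by all 3 fits). The call was lost in the bias-adjusted edgeR fit (adjusted p = 0.0551) and without wild-type replicate 2, where its value was 0.89. The copies of S100A10 moved apart. The copy s100a10a fell to 7.06 and 4.51 CPM in mutants, against 49.3 and 66.9 CPM in wild type (log2 fold change -3.33 ± 0.25, edgeR adjusted p = 4.94e-11), and was called by all 3 fits. The copy s100a10b had 1060 and 1166 CPM in mutants, against 587 and 508 CPM in wild type (log2 fold change 1.02 ± 0.32, edgeR adjusted p = 0.0494), and was not called without the block or by 6 of the other alternatives. ITGB2, the beta chain of complement receptor 3, had 457 and 562 CPM in mutants, against 401 and 256 CPM in wild type, and was not called (log2 fold change 0.66, edgeR adjusted p = 0.218). The alpha chain gene of that receptor, ITGAM, had 96.0 and 86.0 CPM in mutants, against 144 and 63.3 CPM in wild type. Its groups overlapped (log2 fold change -0.08, edgeR adjusted p = 0.923).

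In complement, 1 of 17 tested genes was called higher and 1 lower (11.8%, against 3.71% of all genes, or 1.80% higher and 1.90% lower), and the median log2 fold change was -0.30. The initiating C1q chains did not pass the test. The c1qb gene had 158 and 174 CPM in mutants, against 183 and 145 CPM in wild type (log2 fold change 0.03 ± 0.23), and c1qa had 116 and 98.0 CPM in mutants, against 120 and 90.0 CPM in wild type (log2 fold change 0.04 ± 0.21). Their groups overlapped, and the edgeR adjusted p was 0.975 and 0.962. The ratio of c1qa to c1qb reads was 0.736 and 0.563 in mutants, against 0.657 and 0.620 in wild type, so it overlapped too. The gene c1qc, which lies between them in the RefSeq list, had 0 reads in all 4 libraries. Macrophage markers, which label a known source of C1q, were mixed in the same libraries. Of 27 tested, 4 were called higher and 7 lower (40.7%, against 3.71% of all genes). DESeq2 called 6 and edgeR without the block 5, where they called 1.29% and 1.50% of all genes. Several of the markers are copies of MFAP4. Of the copies called lower, MFAP4 (3 of 13) had 1 and 0 reads in mutants and 176 and 2 in wild type. MFAP4 (13 of 13) had 66 and 98 reads in mutants and 769 and 505 in wild type, and all 3 fits called it lower. The fit with the block also called csf1ra, csf1rb and slc7a7 lower. All 3 fits called 3 markers higher, namely mpeg1, grn2 and MFAP4 (4 of 13), and 1 lower. Over all genes, they called 0.522% higher and 0.580% lower. The summed level of the markers, carried mainly by mrc1b, grn1 and cd74a, was 3636 and 4315 CPM in mutants, against 4059 and 2711 CPM in wild type. Neutrophil markers had 1 of 16 called higher and 0 lower (6.25%, against 3.71% of all genes). At an unadjusted edgeR p under 0.05, 10 were higher and 1 lower, where 17.1% of all genes passed. DESeq2 and edgeR without the block called 0 of them, where they called 1.29% and 1.50% of all genes. The summed levels of the neutrophil markers were 4405 and 8428 CPM in mutants and 4927 and 3345 CPM in wild type. The part of both cell types in the complement values was not tested.

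At the level of C3 and C4, 1 copy of each was called. C3 (6 of 6) (ENSDARG00000093198), now named c3a.4, had 4 and 5 reads in mutants, against 42 and 34 reads in wild type. The level was 0.409 and 0.451 CPM in mutants, against 4.28 and 4.49 CPM in wild type, and replicates of a genotype lay close together. The gene fell, with a log2 fold change of -3.31 ± 0.57 (SE, edgeR adjusted p = 2.30e-04), and the other fits also called it, with an adjusted p of 0.0270 in DESeq2 and 0.0124 without the block. With each library left out in turn its log2 fold change was -3.38 to -3.24, called each time. Few reads lay on other C3 copies, with 16 on C3 (2 of 6), 11 on C3 (1 of 6), 3 on c3a and 2 on c3b over all libraries. C4A (ENSDARG00000038424), now named c4b, had 12 and 54 reads in mutants, against 3 and 1 reads in wild type, or 1.23 and 4.88 CPM in mutants against 0.306 and 0.132 CPM in wild type. It rose with the block (log2 fold change 3.42 ± 0.79, SE, edgeR adjusted p = 0.00606), and mutant replicate 2 held most of its reads. DESeq2 (adjusted p = 0.181) and edgeR without the block (adjusted p = 0.0625) did not call it. Leaving out mutant replicate 1 gave 4.34, and leaving out mutant replicate 2 gave 2.36, which was not called (adjusted p = 0.433). It was also not called without wild-type replicate 2 (adjusted p = 0.0603). The other copy, c4, was not called, with 6.24 and 11.2 CPM in mutants and 8.76 and 7.79 CPM in wild type (log2 fold change 0.02 ± 0.30). The ratio of C4A to c4 reads was 0.197 and 0.435 in mutants, against 0.0349 and 0.0169 in wild type.

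Genes of the alternative pathway and its regulators did not pass the test, and the factor B gene cfb had 8 reads in all. Factor D, the protease that activates factor B, is listed as cfdl and had 109 and 197 CPM in mutants, against 235 and 180 CPM in wild type (log2 fold change -0.49 ± 0.26, edgeR adjusted p = 0.351). Properdin, which stabilizes the C3 convertase, is present as 2 neighbouring copies. CFP (2 of 2) had 125 and 113 CPM in mutants, against 174 and 126 CPM in wild type (log2 fold change -0.33 ± 0.22), and CFP (1 of 2) had 31.1 and 27.8 CPM in mutants, against 49.9 and 31.8 CPM in wild type (log2 fold change -0.44 ± 0.21). All 4 mutant values were below the wild-type values of the same copy, with edgeR adjusted p of 0.514 and 0.266. The nearest values were close, 125 against 126 CPM and 31.1 against 31.8 CPM. Both mutant libraries lay below both wild-type libraries for 21.7% of all genes. The ratio of CFP (1 of 2) to CFP (2 of 2) reads was 0.249 and 0.247 in mutants, against 0.286 and 0.252 in wild type. The inhibitor gene cfh had 48.1 and 44.4 CPM in mutants, against 87.1 and 37.9 CPM in wild type. Wild-type replicate 1 alone was high, and the log2 fold change of -0.33 became 0.26 without it. The genes cfhl4, cfh, cfhl1, cfhl2 and cfhl3 stand in 1 row of neighbours, with 1, 2104, 22, 263 and 0 reads over all libraries. A factor B-like gene outside the symbol rule, C2 (1 of 4), now cfbl, had 178 and 165 CPM in mutants, against 112 and 81.8 CPM in wild type. Its log2 fold change was 0.84 ± 0.22 (edgeR adjusted p = 0.0192), short of the fold threshold. The adjusted p was 0.0593 with DESeq2 and 0.0972 with edgeR without the block.

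The terminal genes were read at low levels. C7 (1 of 2) had 24 and 48 reads in mutants and 47 and 37 reads in wild type, and C6 (1 of 2), its neighbour, had 14 in each mutant library and 14 and 10 in wild type. Neither was called. The genes c5, c8a, c8b and c9 had 1 to 4 reads in all. C1QBP, set apart above, had 106 and 137 CPM in mutants, against 76.9 and 106.1 CPM in wild type (log2 fold change 0.42 ± 0.21, edgeR adjusted p = 0.317).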

How the data were processed

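Per the study's methods, FastQC 0.10.1 served for quality control, STAR 2.3.0 for alignment and BEDTools 2.16.1 with Ensembl gene models (Zv9) for counting. The deposited values are raw counts per gene made by the authors, with 0 columns of unknown sample. The sources used here do not give the handling of strand, multi-mapping reads or overlapping genes. Genes with more than 5 reads over the 4 libraries were kept (17242). TMM-scaled counts were tested with edgeR 4.0.16 (R 4.3.3), quasi-likelihood F-test with its default settings, two-sided, and a block for the replicate number was included, after the study's methods. This block leaves 1 residual degree of freedom. The study itself used DESeq2 with a term for the replicates, so the main edgeR fit is not the study's own test. P-values were adjusted over all tested genes by Benjamini-Hochberg. SEs are the absolute log2 fold change over the root of F. DESeq2 1.42.0, run with the replicate block, and other settings were alternatives, and the fits were tested on simulated data. Members, lists and the naming rule were chosen with earlier results of these data known. Named were members called by any of 3 fits, the 10 with the highest mean CPM, the top 3 of each role and those at 0 in 1 genotype (21 in all); others named were chosen after their values were seen. Of lists not described above, 6 of 9 B cell and 1 of 12 red cell genes tested were called lower. So were 1 of 11 stem and progenitor and 0 of 13 endothelial and stromal genes, and 0 of each list were called higher. Over all genes, 1.90% were called lower and 1.80% higher. In the order of these lists, DESeq2 called 3, 2, 1 and 0 genes and edgeR without the block 3, 1, 1 and 0. Those fits called 1.29% and 1.50% of all genes. Current symbols came from a gene name table that matched 67 of 77 members, and neighbours from 65 members found in RefSeq by symbol. CPM are not corrected for gene length, so levels are not compared between genes. The 6 pairs of libraries differed beyond counting error (chi-square over its degrees of freedom, 19.6 to 74.8).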

Additional observations from a re-analysis of the deposited data

How the results depend on the processing

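The count of called members was 4 with the replicate block and 2 with no replicate block, 2 with DESeq2 and 2 with the bias-adjusted fit. It was 4 to 6 with RLE factors, with no filter, with the filter of edgeR, with robust fitting and with no fold threshold, and 3 to 5 with a library left out. Over all genes the call count was 639, against 258 with no replicate block, 223 with DESeq2, 198 with the bias-adjusted fit and 1022 with no fold threshold, and it ranged from 412 to 940 with a library left out. Fits without a library had no block and 1 residual degree of freedom. Same-numbered libraries deviated together only weakly (r = 0.122 across 17242 genes, which are not independent), and 2 pairs do not settle whether the numbers pair the samples. The sign turned with a library left out for genes that were not called: log2 fold changes ranged from -0.17 to 0.23 for c1qa, -0.15 to 0.17 for c1qb, -0.92 to 0.26 for cfh, -0.74 to 0.37 for plaua, -2.27 to 0.29 for PLAU (2 of 2), -0.17 to 0.68 for serpina10a, -0.96 to 0.18 for GP9, -0.52 to 0.63 for gp1bb and -0.21 to 0.11 for tbxas1. The adjusted p of itgb3a was 0.134 and that of C4A 0.0913 in the bias-adjusted fit. Depth limits the 15 tested members with under 50 reads, whose log2 fold changes had standard errors of 0.75 to 2.39.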
